A study of Homo sapiens with 9 samples.

Results

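The expression of 6 transcription factors of the kidney lineage, PAX8, PAX2, HNF4A, LHX1, WT1 and TFCP2L1, was followed in HK-2 cells exposed to transforming growth factor β1 (TGFβ1). The genes were chosen by name, and every probe set that the platform annotation pairs with 1 of these symbols and no other was read. Of the 6 genes, 5 had at least 1 such probe set, and together they had 14 of the 22277 probe sets in the table. HNF4A was not analysed here. PAX8 had 8 of the 14 probe sets, PAX2 and WT1 had 2 each, and LHX1 and TFCP2L1 had 1 each. Where a gene had several sets, the one that was brightest on average stands for it, and the others serve as a check.

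HK-2 is a single immortalised human line derived from proximal tubule epithelium, so all results concern 1 line. RNA was hybridised to 9 arrays, 3 each for untreated cells at 0 h, for cells given TGFβ1 for 24 h and for cells given it for 48 h. All groups grew in DMEM-F12 with glutamine, penicillin, streptomycin, epidermal growth factor, hydrocortisone, triiodothyronine and insulin, transferrin and selenium. The sample labels call the 0 h cells untreated, while the design text calls this group vehicle. The experiment was run on 3 days with consecutive passages, and each array holds the pooled plates of 1 time point from 1 run, so replicates differ by day and passage. No untreated culture of 24 h or 48 h was analysed here, so TGFβ1 and time in culture cannot be told apart. The sources used here give no dose.

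PAX2 and PAX8 are closely related paired-box proteins that specify the nephric duct and act through the conversion of mesenchyme into tubule epithelium. LHX1, a LIM homeobox protein, and WT1, a zinc finger protein, are needed at early steps of nephron formation, and WT1 stays on in adult podocytes. HNF4A is a nuclear receptor of the mature proximal tubule, and TFCP2L1 is a CP2 family factor of the distal nephron and collecting duct. PAX8 remains on in adult tubule epithelium and in most tumours that arise from it.

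PAX8 was the only member bright enough on these arrays to be tested for a change, and its promoter sequence from RefSeq is therefore given. The 250 bases upstream of its annotated start lie at chr2:113278922-113279171 on the minus strand of GRCh38.p14. Both strands were searched for CAGAC, the short core motif that SMAD proteins bind, and for CACCTG, the E-box bound by SNAI repressors. The window is printed in gene orientation with motif matches in capitals.
PAX8: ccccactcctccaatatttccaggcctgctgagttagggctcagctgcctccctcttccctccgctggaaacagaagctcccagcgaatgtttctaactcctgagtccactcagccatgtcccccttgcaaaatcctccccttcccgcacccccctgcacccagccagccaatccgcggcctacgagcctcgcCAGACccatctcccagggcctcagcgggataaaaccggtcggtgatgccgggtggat
It holds 1 match to CAGAC, which begins 57 bases before the start, and 0 to CACCTG. Of 35116 upstream windows of 250 bases in the same RefSeq table, 38% hold CAGAC and 17.5% hold CACCTG, so the CAGAC match is of a common kind. TFCP2L1 has 1 CAGAC and 2 CACCTG matches in its window, and each of the 2 PAX2 windows has 2 CAGAC and 0 CACCTG matches. Of the 2 HNF4A windows, 1 has 1 match to each motif and the other has 0, and the 4 WT1 windows have 0. No match in this list overlapped another, and LHX1 had no window in the RefSeq table.

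PAX8 fell at both times after TGFβ1. Its brightest probe set, 121_at, had log2 values of 7.36, 7.39 and 7.34 in untreated cells in runs 1, 2 and 3, of 6.76, 6.83 and 6.70 at 24 h, and of 6.65, 6.62 and 6.41 at 48 h. Every 24 h and 48 h array lay below every untreated array, and the 48 h arrays lay below the 24 h arrays. Of the 4368 genes tested, 7.72% had all 24 h arrays below all untreated ones, and 8.31% had all 48 h arrays so. The mean was 7.37 ± 0.026 without TGFβ1, 6.77 ± 0.065 at 24 h and 6.56 ± 0.13 at 48 h (SD, n = 3 each). These are RNA levels of whole cultures, in which fewer cells that express a gene and less RNA per cell cannot be told apart.

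At 24 h the log2 difference of PAX8 from untreated cells was -0.60 ± 0.12 (SE), a level 1.52-fold lower, with an adjusted p of 0.0233 in limma. Its 95% confidence interval ran from -0.87 to -0.33. Of the 4368 genes tested, 2.17% passed in the lower direction at this time. PAX8 stood 93rd by size of difference among those 95 genes, near the small end of the changes that passed. Within runs 1, 2 and 3 the difference was -0.60, -0.56 and -0.64.

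At 48 h the difference was -0.81 (1.75-fold lower, 95% interval -1.08 to -0.54, adjusted p = 0.00496 in limma). Here too 2.17% of the genes tested passed in the lower direction, and PAX8 stood 76th of the 95 by size. The differences within runs 1, 2 and 3 were -0.71, -0.78 and -0.93. The 24 h and 48 h comparisons share the 3 untreated arrays. The test over all 3 groups gave an adjusted p of 0.0101 for PAX8, and 4.12% of the genes tested passed it.

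**Figure D1:**
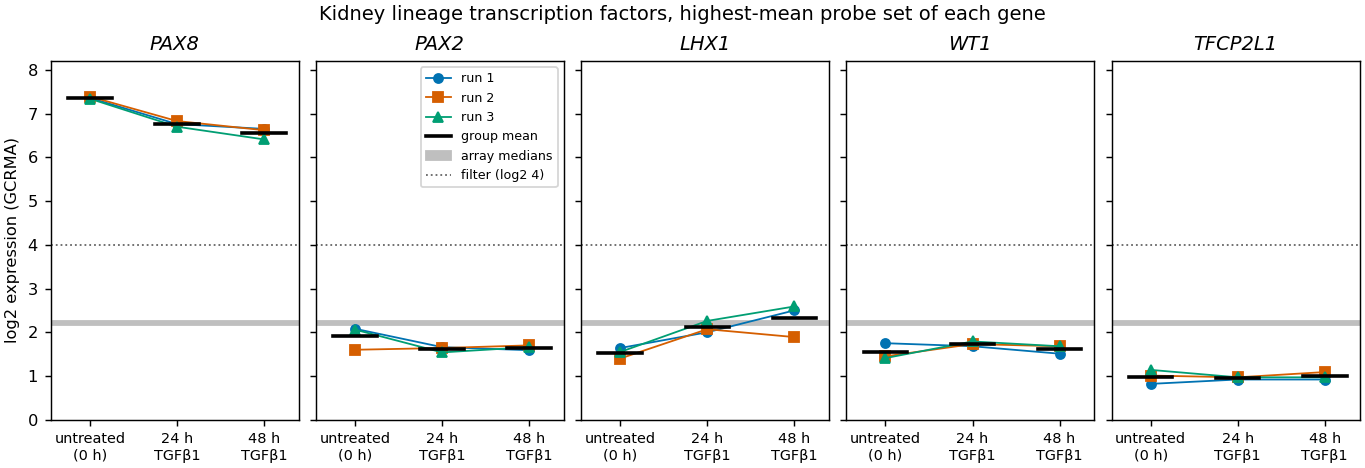
Log2 expression (GCRMA, vertical axis) of the highest-mean probe set of PAX8, PAX2, LHX1, WT1 and TFCP2L1 on each of the 9 arrays by time, with lines joining the arrays of a run, black bars at group means, a grey band at the array medians and a dotted line at the filter of log2 4. PAX8 lies above the filter on all 9 arrays and is lower at 24 h and 48 h, while the other 4 genes never exceed 2.59.

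From 24 h to 48 h PAX8 did not pass the test. The difference was -0.21 with a 95% interval of -0.48 to 0.06 (adjusted p = 0.781 in limma), and within runs it was -0.12, -0.22 and -0.29. The 48 h and 24 h arrays did not overlap, but this held in the lower direction for 6.25% of the genes tested. With 0 genes past the threshold in this comparison in limma with or without the run as a block (219 genes, or 5.01%, had an unadjusted p under 0.05 without it and 709 with it), a further fall of PAX8 was not detectable with 3 arrays a group.

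The call at 24 h was less stable than that at 48 h. At 24 h it was lost when untreated replicate 1 or 2, any of the 3 arrays of the 24 h group, or any whole run was left out (adjusted p from 0.0502 to 0.23 in limma), or when only the 2 groups compared entered the fit (0.081). At 48 h it was lost only when a whole run was left out (adjusted p 0.136, 0.0642 and 0.0763 without runs 1, 2 and 3), while the difference stayed between -0.85 and -0.74 in every fit that left out an array or a run.

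The other PAX8 probe sets gave the same direction of the mean but not the same size. The names of probe sets carry the maker's marks: s_at sets match several transcripts and x_at sets hold probes that can match unrelated ones. Of the 8 sets, 6 passed the filter on low values, and these read partly the same transcripts, so they are not independent measurements. With every probe set tested, 2 of the 6 passed lower at 24 h and 2 at 48 h, where 1.93% and 1.88% of all 5918 probe sets did so. With the run as a block 3 and 3 passed, where 5.14% and 4.24% of all sets passed lower.

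The second set, 209552_at, had 6.96, 7.10 and 6.99 in untreated cells, 6.15, 6.59 and 5.76 at 24 h, and 5.98, 6.07 and 5.91 at 48 h. Every untreated array of this set lay above all 24 h and 48 h arrays. Its differences were -0.85 at 24 h (adjusted p = 0.0418 in limma) and -1.03 at 48 h (adjusted p = 0.018), larger than those of 121_at. Within runs they spread from -1.23 to -0.51 at 24 h, and only from -1.08 to -0.98 at 48 h.

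The third set, 214528_s_at, had 6.19, 6.21 and 6.49 in untreated cells, 5.22, 5.76 and 6.06 at 24 h, and 5.48, 5.51 and 5.74 at 48 h. All later arrays were again below the untreated ones, but run 3 was higher than the other runs at each time. The differences of -0.62 and -0.72 did not pass (adjusted p = 0.183 and 0.112 in limma) and passed with the run as a block (0.0288 and 0.016). The fourth set, 207924_x_at, gave -0.77 at 24 h and -0.73 at 48 h and did not pass (adjusted p = 0.136 and 0.171, and 0.0732 and 0.0986 with the block). Its run 1 array at 24 h, at 3.67, was the only one of its 9 below log2 4.

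Of the 4 dimmer PAX8 sets, 207921_x_at was near the filter, with 3.57, 3.92 and 4.48 in untreated cells, 3.03, 3.49 and 3.43 at 24 h and 3.14, 3.28 and 2.99 at 48 h. It reached log2 4 on 1 array and was not tested; its mean differences were -0.67 and -0.85. The sets 207923_x_at and 213917_at were tested and showed smaller mean differences, -0.14 and -0.34 at 24 h and -0.16 and -0.11 at 48 h, with adjusted p from 0.725 to 0.965. The dimmest, 221990_at, stayed between 1.47 and 2.27, around the array medians, and is background. In 5 of the 8 sets no 24 h or 48 h array overlapped an untreated one, all 5 lower. Among the 6 tested sets this held for all but 207923_x_at and 213917_at, and among all 5918 sets it held in the lower direction for 7.30% at 24 h and 7.96% at 48 h. Across the 9 arrays the Pearson correlation with 121_at was 0.94 for 209552_at, 0.82 for 207921_x_at, 0.75 for both 214528_s_at and 207924_x_at, and from 0.18 to 0.40 for the other 3, over arrays that share runs and times.

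**Figure D2:**
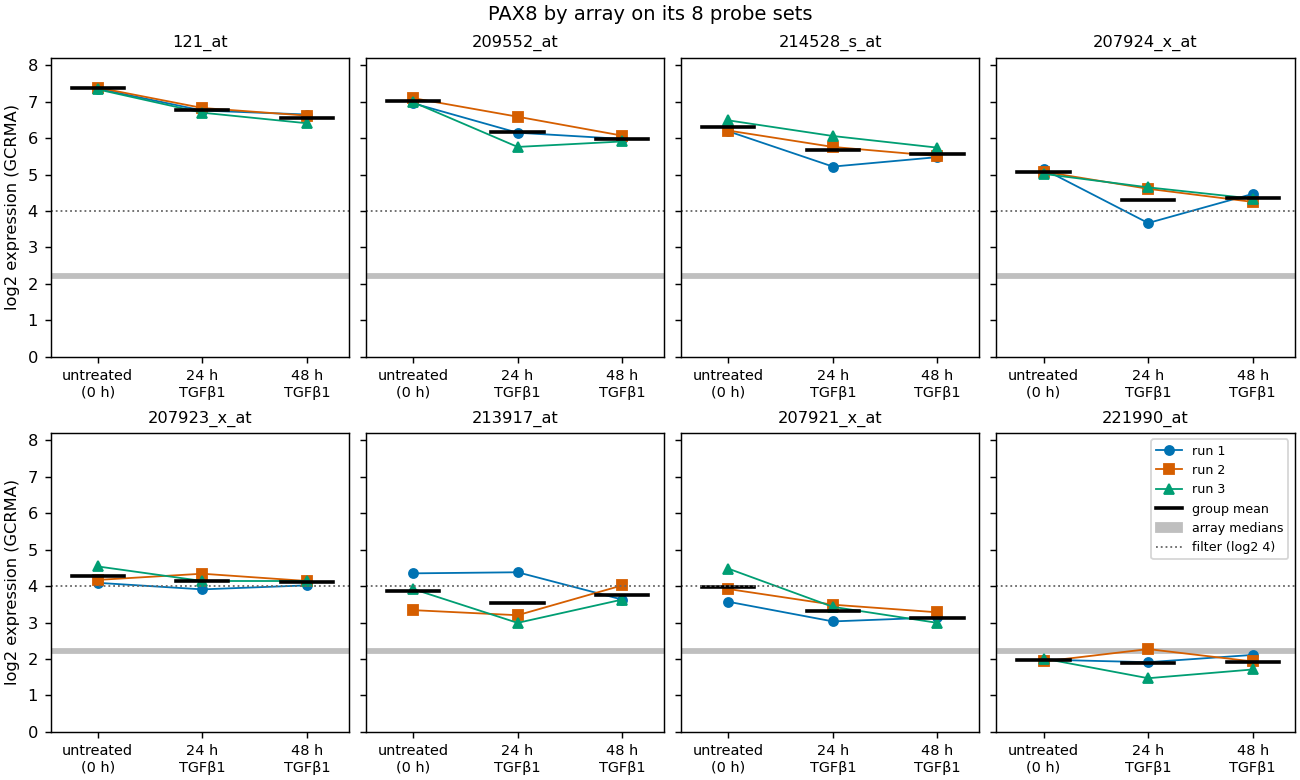
Log2 expression (GCRMA, vertical axis) of each of the 8 PAX8 probe sets by time, ordered from the highest to the lowest mean, with 1 line per run, black bars at group means, a grey band at the array medians and a dotted line at log2 4. In the first 4 sets and in 207921_x_at every untreated array is above every 24 h and 48 h array.

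**Figure D3:**
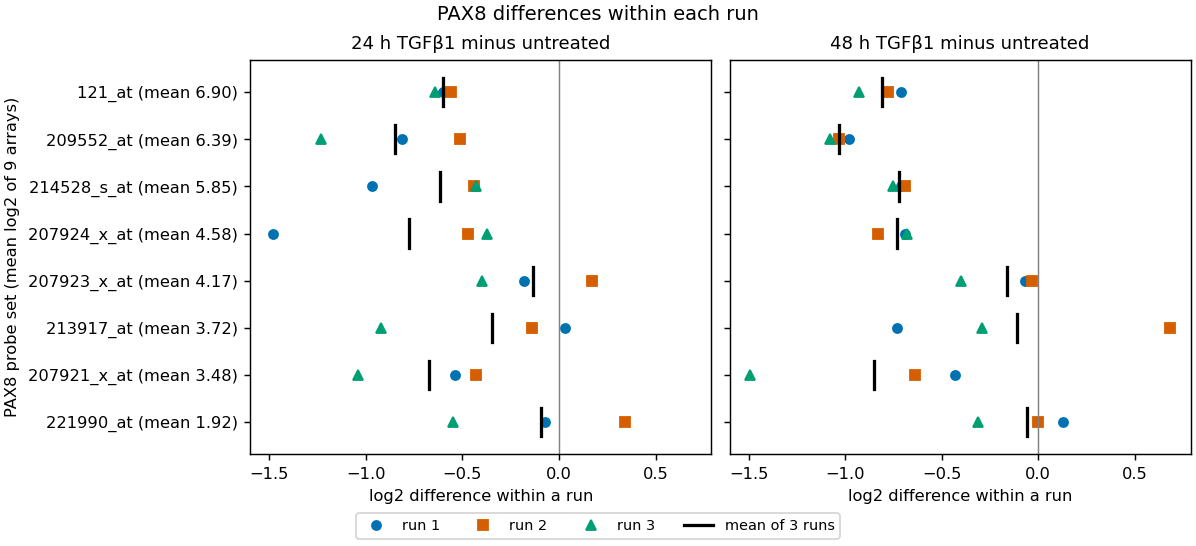
Log2 differences of the 8 PAX8 probe sets within runs 1, 2 and 3 (horizontal axis), 24 h minus untreated on the left and 48 h minus untreated on the right, with a black bar at the mean of the 3 runs. All 3 runs are below 0 at both times for the first 4 sets and for 207921_x_at, and at 24 h the runs fall on both sides of 0 for 207923_x_at, 213917_at and 221990_at.

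The other 4 members were at background in all groups. The array medians lay between 2.20 and 2.23, and no array of these genes reached log2 4, so none was tested. PAX2 had 2.08, 1.60 and 2.06 in untreated cells, 1.66, 1.64 and 1.54 at 24 h and 1.59, 1.70 and 1.66 at 48 h. These groups overlapped at both times. Its second set lay between 1.07 and 1.58. WT1 stayed between 1.41 and 1.79, averaging 1.54 ± 0.18 in the untreated group, 1.73 ± 0.056 after 24 h and 1.62 ± 0.096 after 48 h (SD, n = 3 each), and its second set between 1.47 and 1.99. TFCP2L1 stayed between 0.82 and 1.14, with means of 0.99, 0.95 and 0.99 in the 3 groups in order of time. At such values a change in transcript of unknown size would not be visible, so neither presence nor absence can be read from them.

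LHX1 had 1.64, 1.40 and 1.55 in untreated cells, 2.00, 2.07 and 2.26 at 24 h, and 2.50, 1.89 and 2.59 at 48 h. All 24 h and 48 h arrays were above all untreated arrays, yet only 3 arrays were above the array medians. The mean differences were 0.58 at 24 h and 0.80 at 48 h. Among all 11963 named genes, dim ones included, 6.58% had 24 h arrays entirely above untreated ones and 6.23% had 48 h arrays so. With no filter on low values the adjusted p of LHX1 in limma was 0.217 at 24 h and 0.0714 at 48 h, so it passed at neither time, and the values count as background.

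The genes set around these factors were 35 other kidney transcription factors, 7 other PAX genes, and relatives, partners and targets of each member. Of the other PAX genes, PAX6, known for its role in the eye, brain and pancreatic islets, was the 1 of 7 that passed the filter, and it rose. Its single probe set had 5.66, 5.09 and 5.47 in untreated cells, 7.20, 6.91 and 6.92 at 24 h, and 7.47, 7.09 and 7.41 at 48 h. Every treated array lay above every untreated one, which held for 8.68% of the genes tested at 24 h and 9.75% at 48 h. PAX6 was 3.04-fold higher at 24 h (1.60 ± 0.18, adjusted p = 0.00118 in limma) and 3.78-fold higher at 48 h (1.92, adjusted p = 0.000428), where 2.63% and 2.27% of the genes tested passed in the higher direction. It passed at both times in all 21 alternative fits, those leaving out an array or a run included. The other 6 PAX genes, PAX1, PAX3, PAX4, PAX5, PAX7 and PAX9, never reached log2 4.

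Of the 35 other kidney transcription factors, 21 were named on the array and 4 were tested. None of the 4 passed at either time. With the run as a block 1 rose and 1 fell at 24 h, where 5.95% and 5.52% of the genes tested did so, and 2 rose at 48 h, where 5.22% rose and 4.81% fell. The median difference was 0.26 at 24 h and 0.35 at 48 h, against 0.02 for all genes tested at both times. FOXD1, a factor of the renal stroma, had 3.84, 4.48 and 4.60 in untreated cells, 5.18, 5.02 and 5.88 at 24 h and 4.80, 4.74 and 5.49 at 48 h. Its difference of 1.05 at 24 h had an adjusted p of 0.0943 in limma (0.00561 with the block), and that of 0.70 at 48 h an adjusted p of 0.326 (0.0368 with the block).

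SALL1, a zinc finger factor of nephron progenitors, had 5.04, 4.88 and 6.0 in untreated cells, 4.15, 4.60 and 3.86 at 24 h and 4.86, 5.10 and 4.88 at 48 h. Its 24 h arrays lay below both other groups, and its 48 h arrays overlapped the untreated ones. Of the 4368 genes tested, 7.72% had all 24 h arrays below all untreated ones. The difference at 24 h was -1.11 (adjusted p = 0.0712 in limma, 0.0489 with the block). SOX9, a progenitor and repair factor of the tubule, was at 1.11 above untreated cells at 48 h (adjusted p = 0.109; 0.0385 with the block). Its second, dimmer probe set passed at 48 h with every probe set tested (0.95, adjusted p = 0.0379 in limma). At 24 h this set was at 0.80 (adjusted p = 0.0764 in limma, and 0.00459 with the block). It did not overlap untreated arrays at either time. Of all 5918 probe sets, 8.43% lay entirely above untreated arrays at 24 h and 10.4% at 48 h. The second SOX9 set reached log2 4 on treated arrays alone, so it passed the filter only through the groups where it is high. SOX4 was at -0.19 at 24 h and -0.00091 at 48 h (adjusted p = 0.57 and 0.999). Of the 21, 16 never reached log2 4, among them SIX2, EYA1, GATA3 and EMX2.

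Partners and targets of the PAX2 and PAX8 pathway showed no change that passed without the block. Of 13 genes, 11 were on the array and 2 were tested. PAXIP1, which links PAX2 to histone methylation, was at 0.02 at 24 h and -0.08 at 48 h. GFRA1, the co-receptor for GDNF, was at 0.01 at 24 h and 0.41 at 48 h (adjusted p = 0.985 and 0.293 in limma; 0.0498 at 48 h with the block). RET, the receptor that signals with GFRA1 and a target of PAX2 in the ureteric bud, lay between 1.02 and 1.73, and CDH16, a kidney cadherin activated by PAX8, between 1.03 and 1.73. Both are background values on all 9 arrays.

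Of 16 relatives and cofactors of HNF4A, 12 were on the array and 5 were tested, and none passed at either time, with or without the block. NR2F6 was at -0.33 and -0.30 at 24 h and 48 h, and RXRA, the partner of many nuclear receptors, at -0.24 and -0.15. The coactivator genes NCOA2 and EP300 had adjusted p of 0.544 and 0.758 at 24 h in limma. HNF4G, the closest relative of HNF4A, stayed between 0.79 and 1.45. Of 15 relatives and cofactors of LHX1, 13 were on the array and 1 was tested. LMO4, a LIM-only protein that competes for the same cofactor, was at 0.52 at 24 h and 0.60 at 48 h (adjusted p = 0.286 and 0.224 in limma, and 0.0393 and 0.0238 with the block). It reached log2 4 on 3 arrays, all of them treated, so it passed the filter only through the groups where it is high.

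Of 15 partners and targets of WT1, 13 were on the array and 6 were tested. At 24 h none passed, and with the block 2 rose and 1 fell, where 5.95% and 5.52% of all genes tested did so. At 48 h 1 rose and 1 fell, with and without the block, where 2.27% of all genes tested rose and 2.17% fell (5.22% and 4.81% with the block). IGF1R, the receptor for insulin-like growth factor 1, had 3.30, 3.51 and 4.16 in untreated cells, 4.47, 5.26 and 4.61 at 24 h and 4.80, 5.33 and 5.26 at 48 h, with no overlap between treated and untreated arrays. Treated arrays lay entirely above untreated ones for 8.68% of the genes tested at 24 h and 9.75% at 48 h. IGF1R rose at 48 h (1.47, adjusted p = 0.0159 in limma), and its value at 24 h was 1.12 (adjusted p = 0.0539; 0.0118 with the block). Of its untreated arrays only that of run 3 reached log2 4, so it passed the filter only through the groups where it is high. The call at 48 h was lost without untreated replicate 1 or 2, 48 h replicate 2 or 3, or any whole run (adjusted p from 0.0545 to 0.149). The rise rests on the brightest IGF1R probe set, and the mean of its probe sets differed by only 0.74 at 48 h. The second set was at 0.38 at 24 h and 0.96 at 48 h and overlapped untreated arrays at both times. It did not pass (adjusted p = 0.646 and 0.207 in limma, and 0.375 and 0.0528 with the block). The third set did not pass the filter and was at 0.077 and -0.20.

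CITED2, a coactivator that works with WT1 in the adrenal and gonad in mice, had 8.78, 9.35 and 9.69 in untreated cells, 7.50, 8.41 and 8.22 at 24 h and 7.55, 8.18 and 8.18 at 48 h. It fell at 48 h (-1.30, adjusted p = 0.0434 in limma), and its value at 24 h was -1.23 (adjusted p = 0.0539; 0.000619 with the block). The call at 48 h was lost with no filter on low values (0.0693), with the mean of its probe sets (0.0539), and without untreated replicate 2 or 3, 24 h replicate 3, any 48 h array or any whole run (from 0.0535 to 0.291). The second CITED2 probe set was at -1.46 at 24 h and -1.37 at 48 h. It passed at both times only with the block (adjusted p = 0.0623 and 0.083 in limma, and 0.000308 and 0.000391 with the block). BASP1, a corepressor of WT1, was at 0.49 at 24 h (adjusted p = 0.155; 0.0212 with the block), and MYC at 0.32 (adjusted p = 0.373). Of the CP2 and grainyhead family, to which TFCP2L1 belongs, 1 of 3 genes on the array was tested. It was UBP1, at -0.02 and 0.08 at 24 h and 48 h, and TFCP2 stayed between 1.81 and 2.37.

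The proximal tubule identity of the line was checked on 28 genes. Of these 25 were on the array, 4 passed the filter and 18 never reached log2 4. Defining genes were at background on all arrays: the endocytic receptors LRP2 (from 1.24 to 1.85) and CUBN (from 1.33 to 1.64), the phosphate transporter SLC34A1 (from 1.58 to 1.95) and the water channel AQP1 (from 1.51 to 1.67). Of the 4 tested, none passed at 24 h and 1 fell at 48 h, where 2.17% of all genes tested fell. With the block 2 fell at 24 h (5.52% of all genes tested), and at 48 h 2 fell and 1 rose (4.81% and 5.22%). ASS1, the argininosuccinate synthase, had 6.09, 6.51 and 6.61 in untreated cells, 5.60, 5.57 and 5.85 at 24 h and 5.46, 4.99 and 5.51 at 48 h. It fell at 48 h (-1.09, adjusted p = 0.012 in limma), and its value at 24 h was -0.73 (adjusted p = 0.0706; 0.0221 with the block). The call at 48 h was lost without any 1 of the 3 runs (0.111, 0.128 and 0.117 without runs 1, 2 and 3).

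PDZK1, a scaffold of brush border transporters, had 5.96, 5.45 and 6.91 in untreated cells, 5.06, 3.63 and 5.06 at 24 h and 4.86, 3.83 and 5.06 at 48 h. Its run 2 arrays were the lowest of each group, and treated arrays lay below untreated ones in every run. The differences were -1.52 at both times (adjusted p = 0.153 and 0.161 in limma; 0.00151 and 0.00163 with the block). CDH6, a cadherin of the developing proximal tubule, was at 1.33 at 48 h (adjusted p = 0.103; 0.00659 with the block), and all its 5 probe sets had a higher mean at both times. Of these, 1 check set passed at 48 h with every probe set tested (2.14, adjusted p = 0.0314 in limma). With the block all 5 passed at 48 h (adjusted p from 0.00151 to 0.0247), where 5.14% of all 5918 probe sets passed higher. The same check set passed at 24 h with the block (0.039). The 5 sets read 1 gene and are not independent measurements. The amino acid transporter subunit SLC3A1 was at -0.10 at 24 h and -0.02 at 48 h. The median difference of the 4 was -0.42 at 24 h and -0.56 at 48 h. Over all 25 genes, dim ones included, 5 had 24 h arrays entirely below untreated ones and 5 had 48 h arrays so, where 5.72% and 6.66% of all 11963 named genes did.

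**Figure D4:**
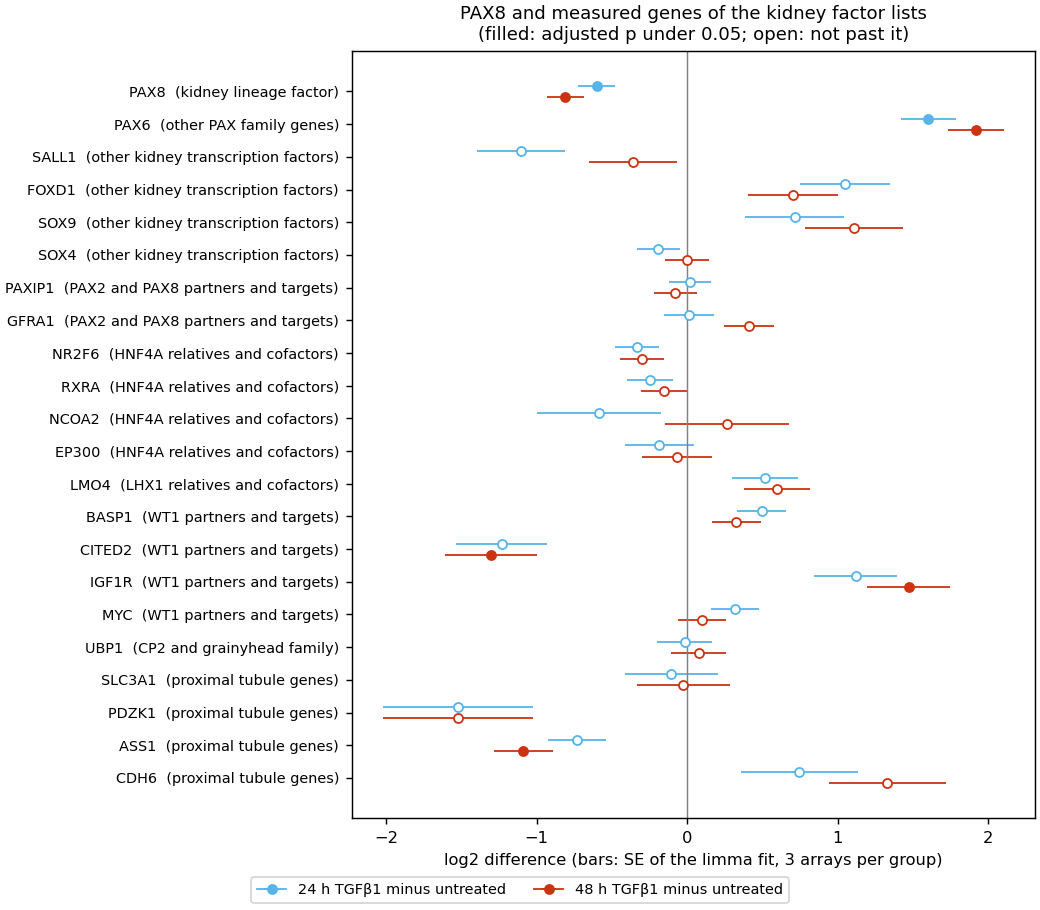
Log2 differences from untreated cells (horizontal axis, bars are the SE of the limma fit, 3 arrays per group) at 24 h in blue and 48 h in red for PAX8 and the measured genes of the lists named at the left, filled where the adjusted p is under 0.05. PAX8 is filled on the lower side and PAX6 on the higher side at both times, and CITED2, IGF1R and ASS1 are filled at 48 h alone.

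The genes whose log2 values most resembled those of PAX8 over the 9 arrays were CLDN1 (Pearson r = 0.97), CD9 (r = 0.97), LY6E (r = 0.96), DUSP5 (r = 0.96) and LRRC61 (r = 0.95), out of the 4368 genes tested. The 9 arrays share 3 runs and 3 times, so these correlations describe a common course and carry no test. The course of each was steeper than that of PAX8: CLDN1, a tight junction protein, was at -1.70 at 24 h and -1.94 at 48 h, and CD9, a tetraspanin, at -2.97 and -3.33. LY6E was at -1.21 and -1.70, the phosphatase gene DUSP5 at -1.79 and -2.38, and LRRC61 at -1.17 and -1.32. All 5 passed at both times (adjusted p from 5.42e-05 to 0.0057 in limma), where 2.17% of all genes tested passed lower at each time. They were chosen for their likeness to PAX8 on these same arrays, so such calls were likely from the choice and add no support.

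Markers of other cells and of the treatment were read beside these results. Of 7 TGF-beta target genes on the array, 6 were tested. Of these, 5 rose at 24 h and 4 at 48 h, where 2.63% and 2.27% of all genes tested rose. With the block 6 rose at each time, where 5.95% and 5.22% of all genes tested rose. Among them were PMEPA1 (2.69 and 2.48), TGFBI (2.59 and 2.62) and LTBP2 (1.13 and 1.01). For LTBP2 at 48 h the adjusted p in limma was 0.081 without run 1 and 0.0558 without run 3. PMEPA1 reached log2 4 on treated arrays alone, so it passed the filter only through the groups where it is high. None of 7 endothelial and 5 leukocyte markers reached log2 4 on any array. Of 6 podocyte markers PTPRO, a receptor phosphatase, and NES were tested and did not pass. On its brightest probe set PTPRO lay between 9.73 and 10.70 on all 9 arrays, well above background. Its other set lay between 1.27 and 1.75, at background, so the 2 sets disagree on its level. NES lay between 3.79 and 4.92, while NPHS1 and PODXL did not exceed 2.50. Of 7 fibroblast markers only LUM was tested and it did not pass (-0.37 and 0.33). Summed on the linear scale, the fibroblast markers spanned 82.6 to 112 at 24 h and 128 to 144 at 48 h, against 101 to 131 in untreated cells, while COL3A1 did not exceed 1.84 in log2. COL1A1, a chain of type I collagen on the same list, was too dim to be tested, with log2 values of 2.18, 1.51 and 1.49 in untreated cells, 2.98, 3.07 and 3.18 at 24 h and 3.14, 2.23 and 3.15 at 48 h. All its 24 h and 48 h arrays lay above all its untreated ones, which held for 6.58% and 6.23% of all 11963 named genes. In the other 6 fibroblast markers the treated arrays overlapped the untreated ones at both times. LUM, the only fibroblast marker to reach log2 4, weighs most in the sum, and its 48 h arrays lay above its 24 h arrays. Of 15 distal nephron markers 2 were tested. SCNN1A, a sodium channel subunit, fell at both times (-3.20 and -2.86; without run 1, adjusted p = 0.0572 and 0.0713, and without run 3 at 48 h, 0.0581). This rests on its brightest probe set. That set reached log2 4 on the 3 untreated arrays alone, so it passed the filter only through the group where it is high. The other 2 sets did not pass the filter and were at 0.043 and -0.13 at 24 h and at 0.10 and -0.31 at 48 h, and the mean of its sets was at -1.10 and -1.02 (adjusted p = 0.00584 and 0.00939). CA2, a carbonic anhydrase, was at -0.64 and -0.60 (adjusted p = 0.235 and 0.293; 0.0081 and 0.0115 with the block). The summed distal markers spanned 70.3 to 83.2 at 24 h and 74.5 to 82.3 at 48 h, against 151 to 194 in untreated cells. This sum mainly repeats the brightest SCNN1A set and does not show a fall of the whole list, as 13 of the 15 markers never reached log2 4. Over all 15, dim ones included, the median log2 difference was -0.08 at 24 h and -0.06 at 48 h. The part of any of these in the change of PAX8 was not tested.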

How the data were processed

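The authors deposited 1 log2 value per probe set and array, and the submitters' processing notes name GCRMA, without a version in the sources used here. The values reach 12.5, from which the log base was read. GCRMA corrects background with probe sequence, normalizes between arrays and summarises probe sets, and it compresses differences near background. No further normalization was applied. The table has 22277 probe sets, of which 62 are controls. The platform annotation gives 19064 of them 1 symbol, 1043 several and 2170 none, and 19052 symbols were matched through gene IDs to the RefSeq gene table of GRCh38.p14. The highest-mean probe set stood for each of 11963 genes. Genes with log2 of at least 4 on at least 3 arrays were tested, which left 4368 (36.5%). From 28.2% to 29.2% of probe sets reached log2 4 on an array. The number of arrays limits the precision.

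All 9 arrays entered 1 fit in limma 3.58.1 (R 4.3.3, lmFit and eBayes, Benjamini-Hochberg over the 4368 genes, threshold 0.05). Every adjusted p comes from this fit unless the block or another setting is named. The script was tested on simulated data. The titles' replicate numbers were taken to mark the 3 runs: arrays with the same number deviated together from their group means (r from 0.378 to 0.662), and for each of the 9 the closest array had its own number. The fit with this block is printed where it changes a call of a gene named here. Replicates are runs of 1 line, so each p-value weighs a difference between groups against the spread among runs of that line. In the fit with the block, shifts shared by all arrays of a run are taken out of that spread.

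The members and lists were chosen with earlier results of these data known. The genes named are the members with all their probe sets, up to 4 tested genes of each list with the smallest p over the 3 groups (3 for the TGF-beta targets), and the 5 genes most correlated with PAX8; genes outside this rule were named after their values were seen. Lists carry counts and medians and no test of their own. Alternatives varied the filter, the probe set, the scaling, the block, the variance model, the groups fitted and the arrays kept.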

Additional observations from a re-analysis of the deposited data

How the results depend on the processing

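The direction of PAX8 was lower than untreated in all 21 alternative fits at 24 h (-0.63 to -0.51) and in all 21 at 48 h (-0.85 to -0.56), and it passed in 12 and 18 of them (adjusted p in limma 0.0075 to 0.23 and 0.00184 to 0.136). Of the 9 that left no array out, 8 passed at 24 h and 9 at 48 h. The exception was the fit of only the 2 groups compared, with -0.60 and an adjusted p of 0.081, which has fewer arrays. Leaving out an array or a run gave PAX8 differences from -0.63 to -0.57 at 24 h and from -0.85 to -0.74 at 48 h, and adjusted p over the 3 groups from 0.0181 to 0.219. From 24 h to 48 h it passed in none of 21 (0.356 to 0.999). The replicate block gave 501 genes at 24 h and 438 at 48 h, against 210 and 194 without it. Fitting only 2 groups gave 124 genes at 24 h. Leaving out an array or a run gave from 34 to 213 genes at 24 h and from 33 to 206 at 48 h. Without whole runs 1, 2 and 3 the counts were 34, 129 and 81 at 24 h and 33, 112 and 79 at 48 h. Without untreated replicate 1 they were 105 and 119. The 24 h count was 130 without 24 h replicate 2, 116 without 24 h replicate 3 and 138 without 48 h replicate 1. The 48 h count was 112 without 48 h replicate 1 and 111 without 48 h replicate 3.

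Among the background members, the mean of both WT1 probe sets gave -0.042 at 48 h, against 0.08 for the brighter set. Leaving out an array or a run moved WT1 from 0.10 to 0.33 at 24 h and from -0.0065 to 0.24 at 48 h, and PAX2 from -0.47 to -0.19 at 24 h and from -0.45 to -0.15 at 48 h. The cause of these shifts was not tested. The block changed no call of PAX8 or PAX6. Values below about log2 4 limit what can be read of PAX2, LHX1, WT1 and TFCP2L1.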

Other observations

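Some proximal tubule genes that lay too near the filter to be tested were lower after TGFβ1. They were chosen after their values were seen. SLC17A3, an organic anion transporter, had log2 values of 4.12, 3.66 and 3.77 in untreated cells, 1.76, 2.10 and 1.81 at 24 h and 2.39, 1.74 and 2.06 at 48 h. SLC4A4, the sodium bicarbonate cotransporter of the proximal tubule, had 4.18, 3.86 and 4.72 in untreated cells, 2.78, 2.99 and 3.0 at 24 h and 3.0, 2.58 and 2.68 at 48 h. For both genes every later array lay below every untreated one. Of all 11963 named genes, 5.72% did so at 24 h and 6.66% at 48 h. The later values of SLC17A3 lay near the array medians.

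TFAP2A, a factor of the kidney list that also missed the filter, had 4.03, 2.94 and 4.24 in untreated cells, 2.84, 2.84 and 2.85 at 24 h and 3.02, 1.98 and 2.63 at 48 h. Its run 2 was lower than the other runs in untreated cells, and its 48 h arrays overlapped the untreated ones. TLE4, a corepressor that binds PAX2, had 2.45, 3.16 and 2.86 in untreated cells, 3.54, 3.56 and 3.87 at 24 h and 3.83, 3.47 and 3.84 at 48 h. All its later arrays were above the untreated ones, which held for 6.58% of all 11963 named genes at 24 h and 6.23% at 48 h. None of its arrays reached log2 4 and it was not tested.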
